A study of Mus musculus with 4 samples.

Results

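The mitochondrial ribosomal protein (MRP) genes were examined in RNA-seq of reconstituted ovaries (rOvaries). They were taken by name, as every symbol of the count table that starts with Mrpl or Mrps followed by a digit, leaving out the 5 processed pseudogenes whose names carry "-ps". This gave 78 genes of 54021 symbols, 49 named for the large subunit (Mrpl) and 29 for the small subunit (Mrps). The rule used names only, but the family was chosen with earlier results of these data known.

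As the study's methods describe it, an rOvary is a graft made of female primordial germ cells combined with somatic cells of the fetal gonad. Both came from actin-GFP C57BL/6 donors, and the graft was placed under the kidney capsule of an ovariectomized female. The recipients of both groups were second-generation (G2) Terc-/- mice on C57BL/6, which lack the telomerase RNA in every cell and serve as a model of premature aging, and were on average 10 weeks old. INK128, an inhibitor of the mTOR kinase that acts on both mTOR complexes, was given in the drinking water to 1 group (30 μM in the study's methods, 0.75 μM per g in the labels), and the Control group did not receive it. Both groups were collected 4 weeks after transplantation, with 2 libraries each, INK128 replicates 1 and 2 and Control replicates 1 and 3. The labels do not say that replicates came from separate mice, so p-values measure only the spread between these libraries.

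Mitochondria carry their own ribosome, which makes the few proteins encoded by mitochondrial DNA, all of them subunits of the oxidative phosphorylation complexes. Its RNA comes from mitochondrial DNA, whereas each of its proteins is encoded in the nucleus, made in the cytosol and imported. Some of these proteins have a counterpart in bacterial ribosomes, and others are found in mitochondria only. mTOR complex 1 is known to control the translation of many nuclear-encoded mitochondrial proteins, MRPs included, through the 4E-BP proteins. In the ovary, oocytes are rich in mitochondria.

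The comparison asked how transcripts of these genes differed between INK128-treated and control rOvaries. Totals were 19130209 and 23029089 counts in the INK128 libraries and 21585292 and 22812603 in the controls. A floor of 3 counts corresponded to 0.13 to 0.157 counts per 1000000 (CPM), and every MRP gene had at least 337 counts in every library. The 2 control libraries differed from each other more than the INK128 libraries did. Over 11758 tested genes, log2 CPM correlated at r = 0.98 between the INK128 libraries and at r = 0.806 between the controls. The summed CPM of 8 tested oocyte markers was 1070 and 791 with INK128 and 776 in Control 1, against 25.4 in Control 3. All 8 had a positive log2 fold change, with a median of 1.19. In 6 of them both INK128 libraries lay above both controls, where 34.5% of all tested genes did so. Control 1 held 1021 counts of 4 Y-linked genes, against 0 to 2 in the other libraries, and the highest summed CPM of 4 Sertoli markers (1300, against 384 to 405). The study's methods describe female gonads and recipients, and the source of these Y-linked counts was not tested. Kidney markers (17 tested) summed to at most 235 CPM in the INK128 libraries and to 916 and 2040 CPM in the controls, and all 17 had negative fold changes. Granulosa markers (9 tested) summed to 6210 and 8070 CPM with INK128 and to 3320 and 6510 CPM in the controls, of which Inha alone made up 4180 and 6050 CPM with INK128 and 1730 and 2940 CPM in the controls. Of the 9, 4 had a positive log2 fold change, and their median was -0.15. Immune markers (7 tested) summed to 444 and 403 CPM with INK128 against 866 and 1250 CPM. The part of these cell types in the results below was not tested, and in bulk RNA a change in the number of cells of a type and a change in RNA per cell cannot be told apart.

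To show the start regions of genes that the results turn on, the windows of 4 MRP genes called higher with INK128 are printed, from 150 bases before to 20 bases after the RefSeq start (GRCm38.p6), 5′ to 3′ on the strand of the gene. Of the 10 called genes 7 had a window. In the stretch shown, 3 of these 7 (Mrpl52, Mrps16 and Mrpl33) hold a match to one or more of the motifs capitalized, and all 3 are printed. The remaining 4 (Mrpl28, Mrpl23, Mrps21 and Mrps24) hold none there, and of them Mrpl28 is printed. Capitals mark matches on either strand to the ETS motif of the GABP type (CCGGAAG, or CTTCCGG when read on the other strand), the NRF1 core (GCATGCGC) and the YY1 motif (AAGATGG). GABP, NRF1 and YY1 are factors known to bind promoters of nuclear genes for mitochondrial proteins. The windows lie at chr14:54426759-54426928 (plus strand) for Mrpl52, chr14:20393471-20393640 (minus strand) for Mrps16, chr5:31613801-31613970 (plus strand) for Mrpl33 and chr17:26123353-26123522 (plus strand) for Mrpl28.
Mrpl52: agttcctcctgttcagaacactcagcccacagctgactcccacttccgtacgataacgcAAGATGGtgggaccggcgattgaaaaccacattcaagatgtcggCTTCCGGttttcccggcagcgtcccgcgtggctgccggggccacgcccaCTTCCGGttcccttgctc
Mrps16: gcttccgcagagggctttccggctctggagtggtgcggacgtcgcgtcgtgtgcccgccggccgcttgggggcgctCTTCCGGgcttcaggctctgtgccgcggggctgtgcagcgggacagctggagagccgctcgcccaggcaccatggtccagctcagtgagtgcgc
Mrpl33: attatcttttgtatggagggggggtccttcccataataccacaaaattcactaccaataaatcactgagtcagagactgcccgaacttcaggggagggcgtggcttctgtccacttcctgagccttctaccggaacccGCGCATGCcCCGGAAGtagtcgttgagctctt
Mrpl28: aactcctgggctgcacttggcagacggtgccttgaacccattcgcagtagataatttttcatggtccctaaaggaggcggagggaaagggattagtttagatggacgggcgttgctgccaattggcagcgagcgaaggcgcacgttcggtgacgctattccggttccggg

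RefSeq windows of 300 bases (250 before and 50 after the start) were matched by symbol for 69 of the 78 MRP genes, the first listed window of a gene being used. The remaining 9 were Mrpl13, Mrpl15, Mrpl19, Mrpl38, Mrpl4, Mrpl54, Mrps28, Mrps34 and Mrps35. The ETS motif was found in 25 of 69 MRP windows (36.2%), against 18.8% of 8816 windows of tested genes and 9.12% of 27025 windows of all genes. It was in 23 of 63 windows of cytosolic ribosomal protein genes (36.5%) and in 15 of 63 windows of oxidative phosphorylation genes (23.8%). It was in 14 of 43 large subunit windows and 11 of 26 small subunit windows. The NRF1 core was in 8 of 69 (11.6%, against 5.74% of tested and 2.8% of all windows), 7 of them of large subunit genes, and in 3.17% and 15.9% of the windows of those other lists. The YY1 motif was in 13 of 69 (18.8%, against 7.71% and 6.48%), and in 14.3% of either other list. The TATA box letters TATAAA were in 4 of 69 (5.8%, against 6.84% and 14.2%). No match overlapped a match to another of these motifs in the MRP windows. A C followed by 4 pyrimidines at the RefSeq start, the form that begins 5′ terminal oligopyrimidine mRNAs, was seen in 0 of 69 MRP windows, against 13 of 63 windows of cytosolic ribosomal protein genes (20.6%) and 2.29% of tested genes. That count depends on the exact start base, and 54 of the 69 RefSeq starts lay within 200 bases of the GENCODE start of the gene. That of Mrpl33 lay 17016 bases inside its GENCODE span. These matches describe letters in a window and do not show that a factor binds. Median log2 fold changes with INK128 were 0.91 for the 25 MRP genes with the ETS motif and 0.75 for the 44 without. For the NRF1 core they were 0.64 and 0.76, and for YY1 they were 0.77 and 0.76.

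MRP transcripts as a group were more abundant in the INK128 libraries than in the controls. Their summed level, in CPM scaled by TMM factors, was 4449 and 4853 CPM with INK128 and 2839 and 2599 CPM in the controls. On the separate scale of raw counts, they made up 0.422% and 0.446% against 0.289% and 0.263% of all counts. Large subunit genes summed to 2950 and 3170 CPM with INK128 against 1830 and 1700 CPM, and small subunit genes to 1500 and 1690 CPM against 1010 and 895 CPM. Both subunits therefore had both INK128 libraries above both controls. The ratio of the Mrpl to the Mrps sum was 1.97 and 1.88 with INK128 and 1.81 and 1.9 in the controls, so that the groups overlapped and the balance of the subunits' transcripts did not separate them.

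Gene by gene, 75 of 78 MRP genes had a positive log2 fold change (INK128 over Control), where 48.6% of the 11758 tested genes did. The median log2 fold change was 0.76, with quartiles of 0.52 and 1.03 and a range from -0.08 to 1.73, against a median of -0.03 over all tested genes. The medians of the large and small subunit genes were 0.77 and 0.75. More than 1.5-fold higher levels were measured for 55 genes (70.5%), a fold that 21.2% of all tested genes passed, and 22 were more than 2-fold higher. In 72 of 78 MRP genes both INK128 libraries lay above both controls, where 34.5% of all tested genes did so. In 0 of 78 did both lie below, against 34% of all tested genes. The groups overlapped for Mrpl45, Mrpl50, Mrpl48, Mrpl3, Mrps2 and Mrps6.

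Genes were tested with edgeR's quasi-likelihood F-test, adjusted by Benjamini-Hochberg over 11758 genes. To be called, a gene needed more than a 1.5-fold change with its adjusted p under 0.05. It called 10 of the 78 MRP genes higher (12.8%), 6 of the large and 4 of the small subunit, where 3.18% of all tested genes were called higher. It called 0 lower, where 3.19% of all tested genes were called lower. At an unadjusted p under 0.05 there were 54 MRP genes higher and 0 lower, where 17.7% of all tested genes were higher and 18.7% lower. DESeq2 called 47 MRP genes higher and 0 lower, where it called 13.6% of all tested genes higher and 15.1% lower. All 10 genes called by edgeR were among those 47. Of the 55 genes over 1.5-fold, 36 had an adjusted p from 0.05 to 0.1 and 9 a larger one, and the 10 called genes themselves had adjusted p from 0.0464 to 0.0496. The count of calls thus lay close to the threshold. Without Control 1 it was 58 and without Control 3 it was 48, but 22.7% and 21.2% of all tested genes were then called higher. Without INK128 1 or INK128 2 edgeR called no gene of any kind, and 24 and 17 MRP genes were higher at an unadjusted p below 0.05, where 6.39% and 5.43% of all tested genes were. The median log2 fold change moved less, between 0.70 and 0.83, when each library was left out in turn.

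**Figure D1:**
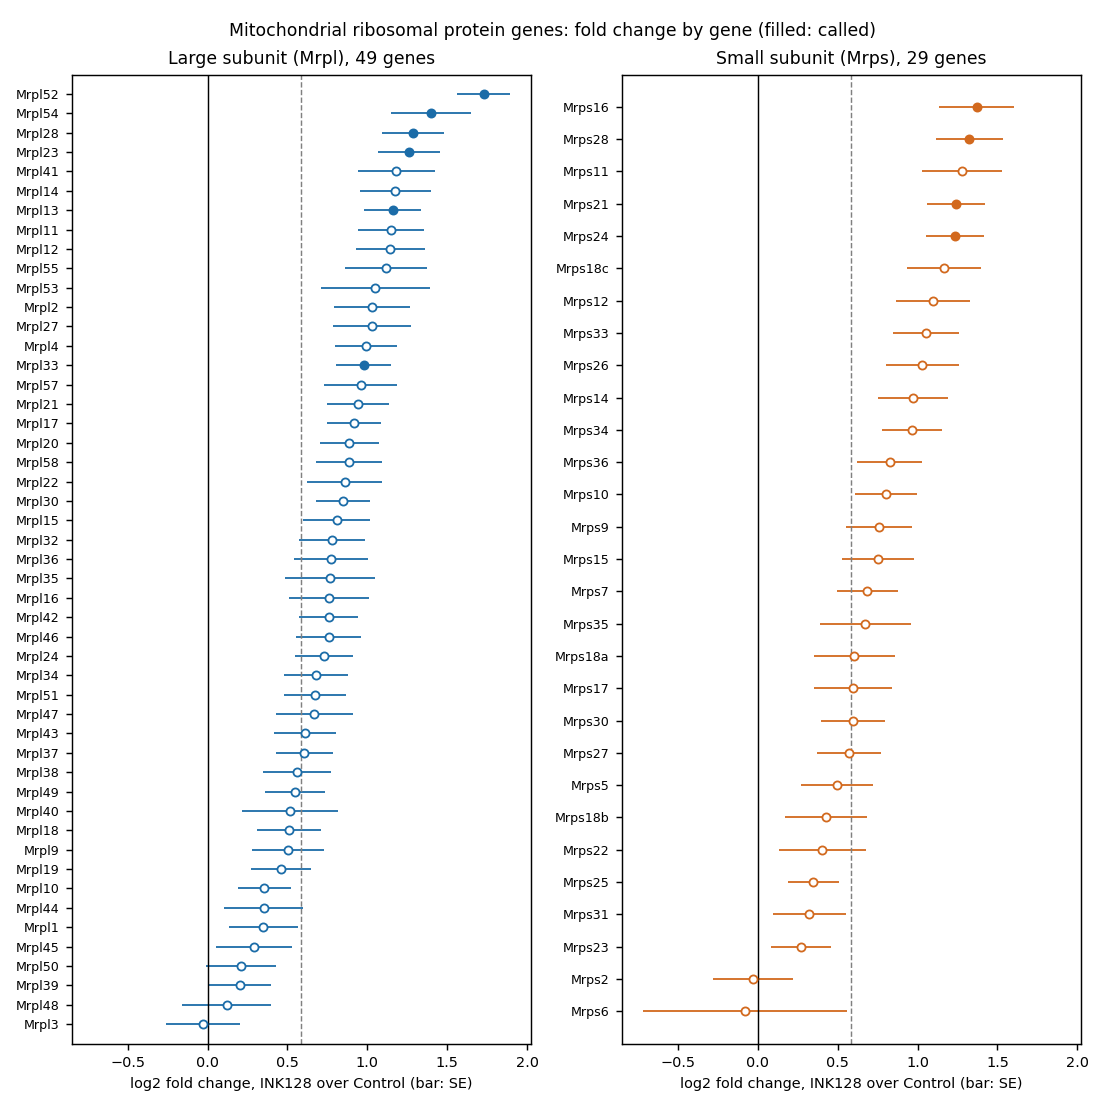
Log2 fold change (INK128 over Control) of each of the 49 large and 29 small subunit genes, with 1 SE as a bar; filled points are the 10 genes called by edgeR and the dashed line is 1.5-fold. Points run from -0.08 (Mrps6) to 1.73 (Mrpl52), 75 of 78 are above 0, and the bar of Mrps6 is the widest.

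The library-by-library plot shows how each gene departed from its own mean over the 4 libraries. The median departure over the 78 genes, in log2(CPM + 0.5), was 0.33 in INK128 1 and 0.45 in INK128 2, against -0.36 in Control 1 and -0.42 in Control 3. In the large subunit the same medians were 0.36 and 0.43 against -0.35 and -0.42, and in the small subunit 0.29 and 0.45 against -0.41 and -0.44. The summed kidney, immune and Sertoli markers also separated the groups, with each control above either INK128 library. For the Sertoli markers the gap was narrow (405 CPM in Control 3, 398 CPM in INK128 2). The oocyte marker sum separated them the other way, also with a narrow gap (791 CPM in INK128 2, 776 CPM in Control 1). The part of these markers in the MRP medians was not tested. An exact permutation test of 2 against 2 libraries cannot give a two-sided p below 0.333, so none was applied to these medians. Of the MRP genes, 1 (Mrps6) differed more than 2-fold between the controls, as 13.8% of all tested genes did, and 0 differed that much between the INK128 libraries.

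**Figure D2:**
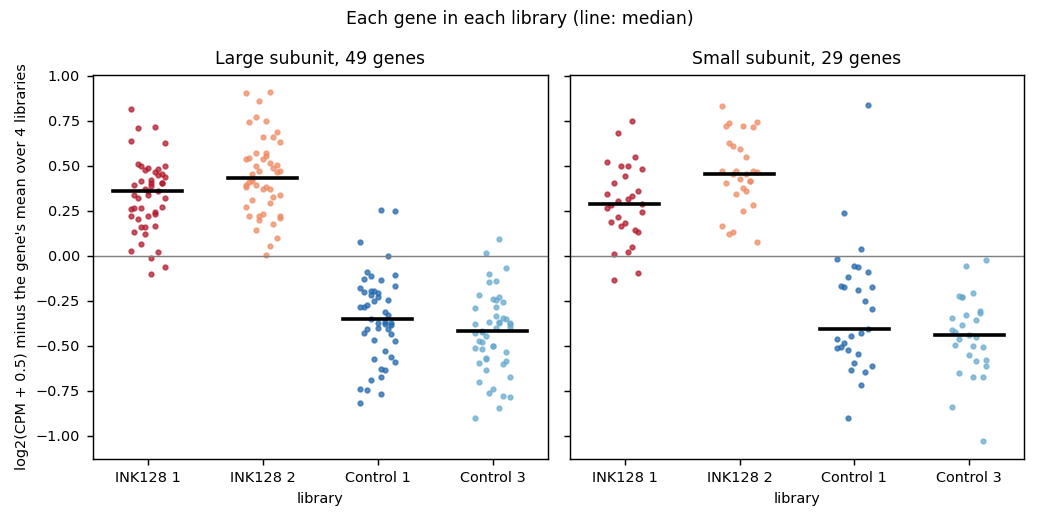
Each point is an MRP gene in a library, as log2(CPM + 0.5) minus its mean over the 4 libraries; black lines are medians. In both subunits the INK128 medians lie between 0.29 and 0.45 and the control medians between -0.44 and -0.35, and the single high point in Control 1 of the small subunit is Mrps6.

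Among large subunit genes, Mrpl52, which encodes a protein with no bacterial counterpart (chr14:54426909-54429756, mm10), had the highest fold change of all MRP genes. It was at 131 and 139 CPM with INK128 and at 41.9 and 39.5 CPM in the controls. Both INK128 libraries stood at more than 3 times the level of either control, and libraries within a group were nearly equal. It rose by a log2 fold change of 1.73 (SE 0.16; edgeR's quasi-likelihood test, Benjamini-Hochberg adjusted p = 0.0464). Mrpl54, also found in mitochondria only (chr10:81264713-81266934), was at 64.5 and 87.9 CPM with INK128 and at 32.1 and 25.7 CPM in the controls. Its INK128 libraries lay apart from each other but well above the controls, and it rose by a log2 fold change of 1.40 (SE 0.25).

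The other 4 called large subunit genes encode proteins with bacterial counterparts. Mrpl28 (chr17:26123500-26126613) was at 73.8 and 89.3 CPM with INK128 and 32.1 and 34.9 CPM in the controls (log2 fold change 1.28, SE 0.19). Mrpl23 (chr7:142532686-142540747), whose bacterial counterpart lies at the exit of the peptide tunnel, was at 80.3 and 80.9 CPM against 37.2 and 30 CPM (log2 fold change 1.26, SE 0.19). For neither gene did a control library come near an INK128 library. Mrpl13 (chr15:55534094-55557748) was at 80.2 and 94.4 CPM with INK128 and 39.4 and 38.8 CPM in the controls (log2 fold change 1.16, SE 0.18). Mrpl33 (chr5:31596935-31664384) was at 100 and 97.9 CPM against 46.7 and 54.1 CPM (log2 fold change 0.98, SE 0.17). Mrpl33 had the smallest fold change of the 10 called genes, with nearly equal INK128 libraries. Mrpl13 shares 330 exonic bases with Mtbp, and Mrpl33 shares 261 with Gm43809, so some of their reads could belong to either gene.

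In the small subunit, Mrps16 (chr14:20389304-20393634) rose most, from 26.4 and 20.9 CPM in the controls to 54.5 and 67.7 CPM with INK128. Its log2 fold change was 1.37 (SE 0.23; edgeR's quasi-likelihood test, Benjamini-Hochberg adjusted p = 0.0486). Mrps28 (chr3:8802146-8923918) was at 47.4 and 41.2 CPM with INK128 and at 16.8 and 18.5 CPM in the controls (log2 fold change 1.32, SE 0.21). Both genes encode proteins with bacterial counterparts, and for both the lower INK128 library was over 2 times the higher control. Mrps21 (chr3:95862634-95871519) was at 88.5 and 106 CPM against 41.2 and 41.2 CPM (log2 fold change 1.24, SE 0.18). Mrps24 (chr11:5703983-5715680), whose bacterial counterpart borders the channel by which mRNA enters, was at 75.2 and 87.8 CPM against 36.2 and 33.1 CPM (log2 fold change 1.24, SE 0.18). The 2 control libraries were alike for Mrps21 and Mrps24. Mrps24 shares 226 exonic bases with Urgcp.

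**Figure D3:**
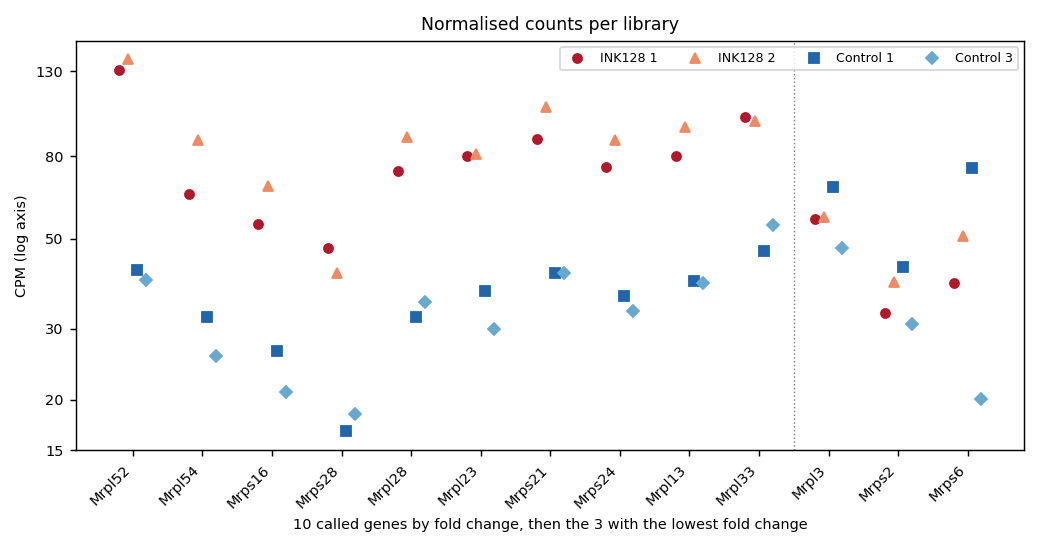
CPM (log axis) in each of the 4 libraries for the 10 called genes, ordered by fold change, and for the 3 genes with the lowest fold change. For the called genes both INK128 points lie above both control points, whereas for Mrpl3, Mrps2 and Mrps6 the control points lie on both sides of at least 1 INK128 point, from 74.7 to 20.1 CPM for Mrps6.

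Genes with fold changes over 2 that were not called included Mrps11 (58.7 and 55.8 CPM with INK128, 19.3 and 27.8 CPM in the controls), named here after its values were seen. Its log2 fold change was 1.28 with an adjusted p of 0.0516 in edgeR's test. In all, 13 MRP genes over 2-fold higher were not called. Mrps12, a counterpart of the bacterial protein at the decoding center, was among them, at 49.6 and 63.6 CPM against 28.9 and 24 CPM (log2 fold change 1.10, adjusted p = 0.0553). Its groups did not overlap. Mrpl34 had a smaller difference, with 51.3 and 56.7 CPM against 37 and 30.5 CPM (log2 fold change 0.68, adjusted p = 0.0898).

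At the low end, 3 genes had a log2 fold change at or below 0. Mrpl3, whose bacterial counterpart reaches toward the peptidyl transferase center, was at 56 and 56.7 CPM with INK128 and at 67.3 and 47.5 CPM in the controls (log2 fold change -0.03, SE 0.23). Mrps2 was at 32.8 and 39.2 CPM against 42.6 and 30.8 CPM (log2 fold change -0.03, SE 0.25). For both genes Control 1 was the highest library and Control 3 the lowest, with INK128 in between. Mrps6 was at 38.9 and 50.7 CPM with INK128 and at 74.7 and 20.1 CPM in the controls (log2 fold change -0.08, SE 0.64). Its value turned on which control was kept. Without Control 1 its log2 fold change was 1.16 (edgeR, adjusted p = 0.00206) and without Control 3 it was -0.74 (adjusted p = 0.0118). Control 1 was also the library with Y-linked counts and the highest Sertoli marker sum, and their part in the Mrps6 level was not tested. Mrps6 shares 159 exonic bases with Slc5a3. Mrpl48, at 79.9 and 96.4 CPM against 99.1 and 63.3 CPM (log2 fold change 0.12), also had the controls on both sides of INK128. Mrpl39 was at 40.7 and 42.9 CPM against 33.3 and 39.3 CPM (log2 fold change 0.20), with a small gap between groups.

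A few other genes were less even between replicates. Mrpl53 was at 37.5 and 61.2 CPM in the INK128 libraries (28.1 and 19.6 CPM in the controls; log2 fold change 1.05, adjusted p = 0.107). Mrpl40 was at 26.1 and 41.8 CPM against 25.4 and 22.1 CPM, its first INK128 library being almost at control level. Mrps35 was at 41.5 and 63.8 CPM against 36.4 and 29.7 CPM. In these 3 genes INK128 2 was the highest library, and none was called. Mrpl35 was among those with the widest gap between controls, at 22.9 and 15.3 CPM, under INK128 levels of 33.6 and 31.3 CPM.

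Of the 3 genes named Mrps18, Mrps18c is the paralog that takes the place of the bacterial protein in the small subunit. It was at 34.8 and 44 CPM with INK128 and at 18.6 and 16.5 CPM in the controls (log2 fold change 1.16, adjusted p = 0.0526). Mrps18b, which sits elsewhere in the small subunit, was at 25.8 and 24 CPM against 21.1 and 15.9 CPM (log2 fold change 0.43, adjusted p = 0.286). Mrps18a, which structures place in the large subunit despite its name, was at 41.5 and 52.7 CPM against 35.5 and 26.5 CPM (log2 fold change 0.60, adjusted p = 0.161). None of them was called, and in each the groups did not overlap. Mrps30, also assigned to the large subunit in structures, was at 51.9 and 60.3 CPM against 40.5 and 33.8 CPM (log2 fold change 0.60, adjusted p = 0.113). With Mrps18a and Mrps30 moved, the median log2 fold changes were 0.77 for 51 large and 0.76 for 27 small subunit genes, so the naming made little difference.

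The genes were also grouped by whether the protein has a bacterial counterpart. The median log2 fold change was 0.85 for the 45 with a counterpart, 8 of them called. For the 31 without, it was 0.60, and 2 were called, Mrpl52 and Mrpl54, where 3.18% of all tested genes were called higher. Mrpl55 and Mrps36 were left unassigned. Mrps18a and Mrps18b were placed among the genes without a counterpart, although their paralog Mrps18c was placed among those with one. Every one of the 31 genes without a counterpart had a positive fold change, as did 42 of the 45 with one. In the large subunit the medians were 0.85 (29 genes) and 0.61 (19 genes), and in the small subunit 0.89 (16 genes) and 0.58 (12 genes). The difference was not tested. Median summed exon lengths of the 2 classes were 2617 and 2533 bases, with 2703 and 2114 bases in the large subunit and 2122 and 3490.5 bases in the small. In the fit with exon length offsets described below, the medians were 0.52 and 0.36. They were then 0.52 and 0.21 in the large subunit and 0.54 and 0.47 in the small.

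Levels between genes were compared per kilobase of joined exons (RPKM), for which the genes ranged from 3.88 to 93.8, with a median of 17.5. By the mean over both groups, the highest in the large subunit were Mrpl52 (122 RPKM with INK128 and 36.7 in the controls), Mrpl34 (89 and 55.6) and Mrpl54 (92.4 and 35). In the small subunit they were Mrps21 (132 and 55.7 RPKM), Mrps12 (54.4 and 25.4) and Mrps28 (56.6 and 22.6). The order differed between the groups. In the controls Mrpl34 was the highest of the large subunit, and Mrpl12 (36.7 RPKM) lay above Mrpl54. There Mrps6 (30.9 RPKM, from 74.7 and 20.1 CPM), Mrps23 (28.9) and Mrps34 (25.8) lay above Mrps12 and Mrps28. With INK128, Mrps24 (55.6 RPKM) lay above Mrps12. The 6 genes ranked highest by the mean are short, with joined exons of 607 to 1109 bases. Exons here were joined over every annotated transcript, so that genes with long minor transcripts, such as Mrpl13 with 7936 bases, have a low RPKM.

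Fold changes with INK128 moved with gene length. Over all tested genes with a length (11700), the log2 fold change fell with log2 exon length at a Spearman correlation of -0.465, given as a description since genes of the same libraries are not independent. Within the 78 MRP genes the correlation was -0.356. Their median exon length was 2394 bases, against 4468 bases over all tested genes. Log2 fold changes had a median of 0.89 in the shorter 39 MRP genes and of 0.67 in the longer 39, where the all-gene median was -0.03. When each library's trend with exon length was taken out by an offset in the edgeR fit, the median log2 fold change of the MRP genes was 0.45 and 65 of 78 were positive. That fit called 0 MRP genes, as it called 0% of all tested genes, and at an unadjusted p below 0.05 it had 33 MRP genes higher and 0 lower, where 12.3% of all tested genes were higher. The 10 called genes had log2 fold changes from 0.38 to 1.5 in that fit, and the lowest adjusted p of an MRP gene was 0.0734. The correlation of the fold change with exon length over the MRP genes turned to 0.566, and the shorter and longer genes then had medians of 0.25 and 0.66. An offset for the median transcript length instead, chosen after these values were seen, gave a median of 0.59 with 75 positive genes. How much of the MRP difference goes with length was not tested beyond these fits.

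**Figure D4:**
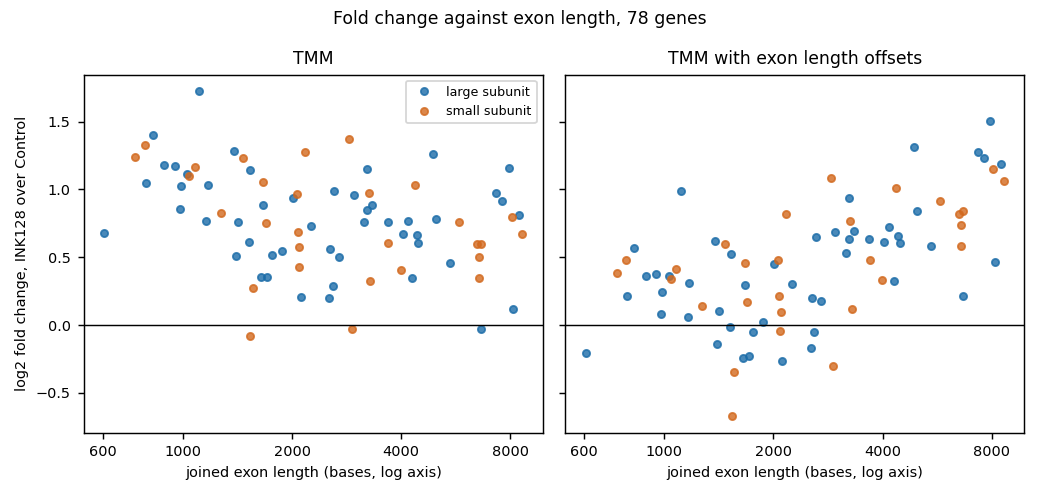
Log2 fold change (INK128 over Control) of the 78 MRP genes against joined exon length in bases (log axis), in the fit with TMM factors (left) and with exon length offsets added (right). The points slope down on the left (Spearman -0.356) and up on the right (0.566), and 75 and 65 of 78 lie above 0.

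Genes of other ribosomal and respiratory proteins give a scale for these values. For the 85 tested genes of cytosolic ribosomal proteins the median log2 fold change was 1.48 and 66 were called higher. For the 78 tested nuclear oxidative phosphorylation genes it was 0.99 and 21 were called higher, where 3.18% of all tested genes were. These genes are short too, with median exon lengths of 1734 and 1631 bases. With the exon length offsets these medians were 0.91 and 0.38, against 0.45 for the MRP genes, and 0 genes of either list were called, as 0% of all tested genes were. Whether the 3 families differ was not tested.

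Other proteins of mitochondrial translation were taken from lists. Ribosomal subunits or partners with other symbols gave 5 tested genes. Gadd45gip1, a large subunit protein, was at 131 and 167 CPM with INK128 and at 73 and 54.9 CPM in the controls (log2 fold change 1.22, adjusted p = 0.052). Chchd1, of the small subunit, was at 54.4 and 63.5 CPM against 29.9 and 23.2 CPM (1.15, adjusted p = 0.0516). Aurkaip1, also of the small subunit, was at 81.8 and 79 CPM against 43.1 and 42.9 CPM (0.90, adjusted p = 0.0503). These 3 missed the threshold narrowly. Dap3, a GTP-binding small subunit protein, was at 110 and 108 CPM against 88.3 and 66.7 CPM (log2 fold change 0.49, adjusted p = 0.158). Ptcd3 was lower in both INK128 libraries, at 31.6 and 31.7 CPM against 33.3 and 37.3 CPM (log2 fold change -0.16, adjusted p = 0.575). Both INK128 libraries thus lay above both controls in 4 of the 5 genes and below them in 1, where 34.5% and 34% of all tested genes did so.

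None of the further lists had a gene that edgeR called in either direction. For the counts that follow, 17.7% of all tested genes were higher and 18.7% lower at an unadjusted p under 0.05, and DESeq2 called 13.6% higher and 15.1% lower. For factors that assemble the mitochondrial ribosome or process its RNA (23 tested) the median log2 fold change was 0.51, with 20 positive. At an unadjusted p under 0.05, 7 of them were higher and 0 lower, and DESeq2 called 3 higher. Translation factors (11 tested) had a median of 0.04, with 2 higher and 0 lower at that p and 1 called higher by DESeq2. Mitochondrial tRNA synthetases and amidation enzymes (16 tested) had a median of 0.14, with 0 at that p and 0 by DESeq2. Genes for transcription, RNA handling and replication of mitochondrial DNA (14 tested) had a median of 0.09, with 3 higher and 0 lower at that p and 3 called higher by DESeq2. Nuclear regulators (8 tested), among them Nrf1, Gabpa and Yy1, had a median of 0.07, with 0 higher and 1 lower at that p and 1 called lower by DESeq2. Apart from the assembly factors, the medians of these lists lay between 0.04 and 0.14, where those of the MRP subunits were 0.77 and 0.75, and these differences were not tested. The genes of these lists were longer than the MRP genes, with median exon lengths from 3764.5 to 6351 bases. With the exon length offsets their medians lay between 0.04 and 0.18, against 0.38 for the large and 0.48 for the small subunit, and that of the assembly factors was 0.31.

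The 2 RNAs of the mitochondrial ribosome did not separate the groups. mt-Rnr1, the small subunit RNA, was at 156 and 299 CPM with INK128 and at 240 and 149 CPM in the controls (log2 fold change 0.22, adjusted p = 0.713). mt-Rnr2, the large subunit RNA, was at 140 and 265 CPM against 346 and 211 CPM (log2 fold change -0.46, adjusted p = 0.455). The groups overlapped for both. The libraries were made from polyA RNA, so total rRNA was not measured.

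**Figure D5:**
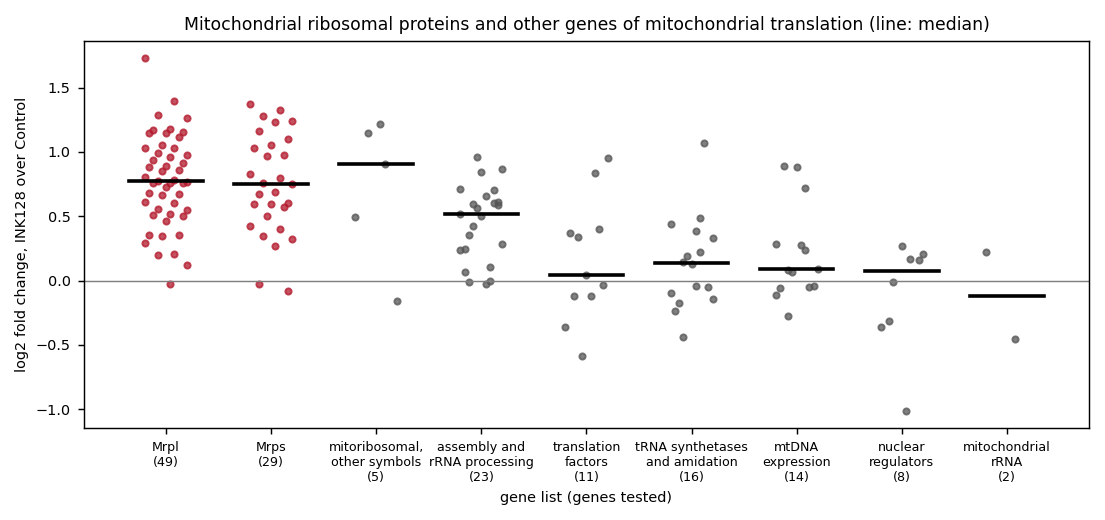
Log2 fold change (INK128 over Control) of the tested genes of each list, with the median as a black line and the number of genes in brackets. The medians of the Mrpl and Mrps genes are 0.77 and 0.75, assembly factors lie at 0.51, and the translation factor, tRNA synthetase, mtDNA expression and regulator lists lie between 0.04 and 0.14.

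The 78 genes lie on 17 chromosomes, 11 of them on chr11 and 8 on chr17. In 33 of 78 (42.3%) a protein-coding gene on the opposite strand starts within 1000 bases of the MRP gene's start, against 16% of 11010 tested protein-coding genes. Mrpl46 and Mrps11 form such a pair with each other, share 173 exonic bases, and had log2 fold changes of 0.76 and 1.28. The neighbor was no member of the family in 31 cases, and in 25 of these it was tested. The median log2 fold change was 0.16 in those 25 neighbors, 14 of them positive, and 0.67 in the MRP genes of these pairs. The MRP gene had the higher fold change in 22 of 25 pairs. The neighbors were longer, with a median exon length of 4013 bases against 1876 bases for the MRP genes of these pairs, and the part of length in this difference was not tested. Among the 25 neighbors edgeR called 1 higher, Fau (log2 fold change 1.62), the neighbor of Mrpl49 and itself the source of a cytosolic ribosomal protein. In 11 of these pairs the MRP gene shares exonic bases with its neighbor, and the kit is not stated to keep strand, so reads there cannot be assigned by strand. Over the family, 32 genes share exonic bases with another counted gene, with a median log2 fold change of 0.68 and 3 called, against 0.80 and 7 called for the 46 that do not, where 3.18% of all tested genes were called higher.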

How the data were processed

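RNA-seq of 4 rOvary libraries was analysed, with groups and replicate numbers taken from the sample labels. The authors used Trimmomatic for trimming, Hisat2 for alignment (mm10) and featureCounts with an annotation named RefGene for counting (versions not given in the sources used here). They deposited raw counts of reads per gene symbol, not normalized and not pooled. Counts summed to between 19130209 and 23029089 per library, so a floor of 3 counts covers 0.13 to 0.157 CPM, counting error only. In 24 symbols a spreadsheet had turned the name into a date, and these were left as they are.

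TMM scaling and CPM were done in edgeR 4.0.16 (R 4.3.3), and the 11758 genes whose mean CPM exceeded 10 were tested by its quasi-likelihood F-test. The filter and the floor used CPM over raw library totals. The CPM printed for genes and lists used the TMM-scaled totals of the tested genes. Calls needed a Benjamini-Hochberg adjusted p under 0.05 with a change of more than 1.5-fold, following the study's thresholds. Each standard error is the log2 fold change divided by the root of F. DESeq2 1.42.0, limma 3.58.1 (voom), other scalings and filters, offsets for length and GC content (loess, span 0.5), and leaving out each library were alternatives. Positions, exon lengths, GC content and overlaps came from GENCODE M21 (mm10), and promoter windows from RefSeq (GRCm38.p6).

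The genes and lists were chosen with earlier results of these data known. Genes named were those called, the 5 highest and 5 lowest by fold change, the 3 highest by RPKM in each subunit, the 3 furthest apart between libraries of each group, the Mrps18 genes, those whose name differs from the structural assignment, the mitochondrial ribosomal proteins with other symbols and the mitochondrial rRNAs. Mrps11, Mrpl46, Mrpl45, Mrpl50, Mrpl12, Mrps23, Mrps34, Inha, the kidney markers named and the neighboring genes are outside this rule, named after their values were seen. Also outside it are the genes without a promoter window, the unassigned Mrpl55 and Mrps36, and Nrf1, Gabpa and Yy1. Lists of other mitochondrial translation genes and of cell type markers were written by hand. Set tests were not used.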

Additional observations from a re-analysis of the deposited data

How the results depend on the processing

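Of 400 alternative values of the 25 named MRP genes, 282 kept their direction and call, 73 lost the call, 21 gained it and 24 changed sign. The count of MRP genes called higher (10) was 47 with DESeq2, 19 with upper quartile factors, 29 with CPM above 10 in all libraries and 32 with at least 1 count in any library, where 13.6%, 4.82%, 8% and 3.66% of all tested genes were called higher, against 3.18% with TMM factors. It was 0 with limma voom, with a mean CPM above 1, with GC content offsets, with exon length offsets and with transcript length offsets, the last chosen after seeing the data. With 55, 57, 56, 33 and 43 MRP genes at an unadjusted p below 0.05, these fits called no gene of any kind in either direction. Over the libraries left out in turn the count called higher was lowest at 0, without INK128 1 or 2. It was highest at 58 without Control 1, where 22.7% of all tested genes were called higher. The count called lower ranged from 0 to 1 (Mrps6, without Control 3, where 21.4% of all tested genes were called lower). The median log2 fold change of all MRP genes was 0.45 with exon length and 0.59 with transcript length offsets. For large subunit genes it was 0.38, 0.58 and, with library totals, 0.63. For small subunit genes it was 0.48, 0.63 and 0.62, and without single libraries 0.65 to 0.83. Library totals moved the median of all tested genes to -0.16, with 293 of them called higher and 627 lower, against 374 and 375 with TMM factors. Of 77 other mitochondrial translation genes tested 0 were called, and these gave 10 higher and 1 lower with DESeq2, 1 higher with TMM factors computed without ribosomal protein genes, 4 higher with upper quartile factors, 6 higher with CPM above 10 in all libraries, and 6 higher and 2 lower with at least 1 count (71 and 91 tested with these filters). Without single libraries they gave 0 to 18 higher and 0 to 2 lower. The highest counts, without Control 1, were 23.4% of the 77 called higher, where 22.7% of all tested genes were called higher and 23.2% lower. With DESeq2 the share called higher was 13% of the 77, against 13.6% of all tested genes.

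Sign changes were all in genes not called with TMM factors over 11758 genes. The log2 fold change of Mrpl3 was 0.0928 with GC content offsets, 0.0108 with at least 1 count, 0.21 with exon length offsets, 0.0262 with a mean CPM above 1, 0.0347 with upper quartile factors and -0.26 to 0.25 without single libraries (the highest without Control 1). That of Mrps2 was 0.018, 0.0076, 0.0239 and 0.0333 with GC content offsets, at least 1 count, a mean CPM above 1 and upper quartile factors, 0.10 with transcript length offsets, and -0.24 (without Control 3) to 0.22 (without Control 1). Exon length offsets gave -0.20 for Mrpl34, -0.17 for Mrpl39, -0.055 for Mrpl40 and -0.0408 for Mrps18b. Mrpl48 was at -0.0183 with library totals, -0.086 with transcript length offsets and -0.17 (without Control 3) to 0.48 without single libraries. Mrps6 was at 0.22 with limma voom and from -0.74 (without Control 3) to 1.16 (without Control 1). Causes were not tested. No paired analysis was possible because the groups share 1 replicate number. With 2 libraries a group the fits left few degrees of freedom, and leaving 1 out assumes that the lone library varies like the other group.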
